A study of Mus musculus with 8 samples.

Results

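The 9 genes described here encode 4 cell-surface peptidases of angiotensins and kinins (Xpnpep2, Ace, Enpep and Mme), the angiotensin precursor (Agt), and the receptors for both peptide families (Agtr1a, Agtr2, Bdkrb1 and Bdkrb2). They were chosen by gene symbol, and the array carried 11 of its 62976 spots for them, 2 each for Xpnpep2 and Mme. The brightest spot, by its mean over all mice, stood for each of the 20863 named genes. The tested lungs came from 4 mice labelled as over-expressing Fra-2 (Fra-2 TG), and the comparison lungs from 4 wild-type (WT) mice. Both groups were C57BL/6 and 8 weeks old, and each mouse gave total RNA from lung for 1 single-colour Agilent array. Fra-2 is the AP-1 transcription factor encoded by Fosl2. Neither the promoter behind the transgene nor the sex of the mice is stated by the labels.

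Angiotensins and kinins are short blood peptides with opposed effects on vessels. Renin cuts angiotensinogen to angiotensin I, angiotensin-converting enzyme (ACE) on endothelium turns it into the vasoconstrictor angiotensin II, and the same enzyme destroys the vasodilator bradykinin. Other membrane peptidases trim or degrade both families, and the lung is a main site of this because the whole circulation passes through its capillaries.

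Of the targeted gene, Fosl2, the brighter spot had a mean log2 level of 9.86 ± 0.59 in Fra-2 TG lungs and 10.61 ± 0.37 in WT lungs, and the dimmer one 6.97 ± 0.64 in Fra-2 TG lungs and 4.52 ± 0.88 in WT lungs (SD, n = 4 each). The spots went in opposite directions and neither passed over all named spots (limma adjusted p = 0.537 and 0.153). The dimmer spot was higher in every Fra-2 TG mouse than in any WT mouse, and 3 of its WT values lay under 4.74, the median over all spots. On the brighter spot the groups overlapped. Mice numbered 4 stood somewhat apart: over all spots, each array correlated with those of its own genotype at a mean of 0.971 for Fra-2 TG mouse 4, 0.966 for WT mouse 4 and 0.973 to 0.975 for the other 6.

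Of the 9 genes, 1 differed between the groups: Xpnpep2 fell 3.37-fold in Fra-2 TG lungs, while the other 8 did not pass the test. Xpnpep2 encodes membrane-bound aminopeptidase P, which removes the first residue of peptides whose second residue is proline, bradykinin among them. Over all genes, 45 of 20863 passed in either direction, 0.216%, and 19 were lower, 0.0911%. Those 45 became 29, 27, 20 and 38 without Fra-2 TG mouse 1, 2, 3 or 4, and 27, 17, 20 and 35 without WT mouse 1, 2, 3 or 4. The median log2 difference was -0.12 over the 9 genes and 0.01 over all genes. All values below are log2 normalised intensities, differences are Fra-2 TG minus WT, and a call means a limma p adjusted over all genes under 0.05. A level under 4.74, the median over all spots, is treated as dim. By that floor 5 genes were above it in all 8 mice (Xpnpep2, Ace, Enpep, Mme and Agtr1a), 1 was below it in all 8 (Agtr2), and Agt, Bdkrb1 and Bdkrb2 crossed it. Levels of different genes come from different probes and are not compared with each other.

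**Figure D1:**
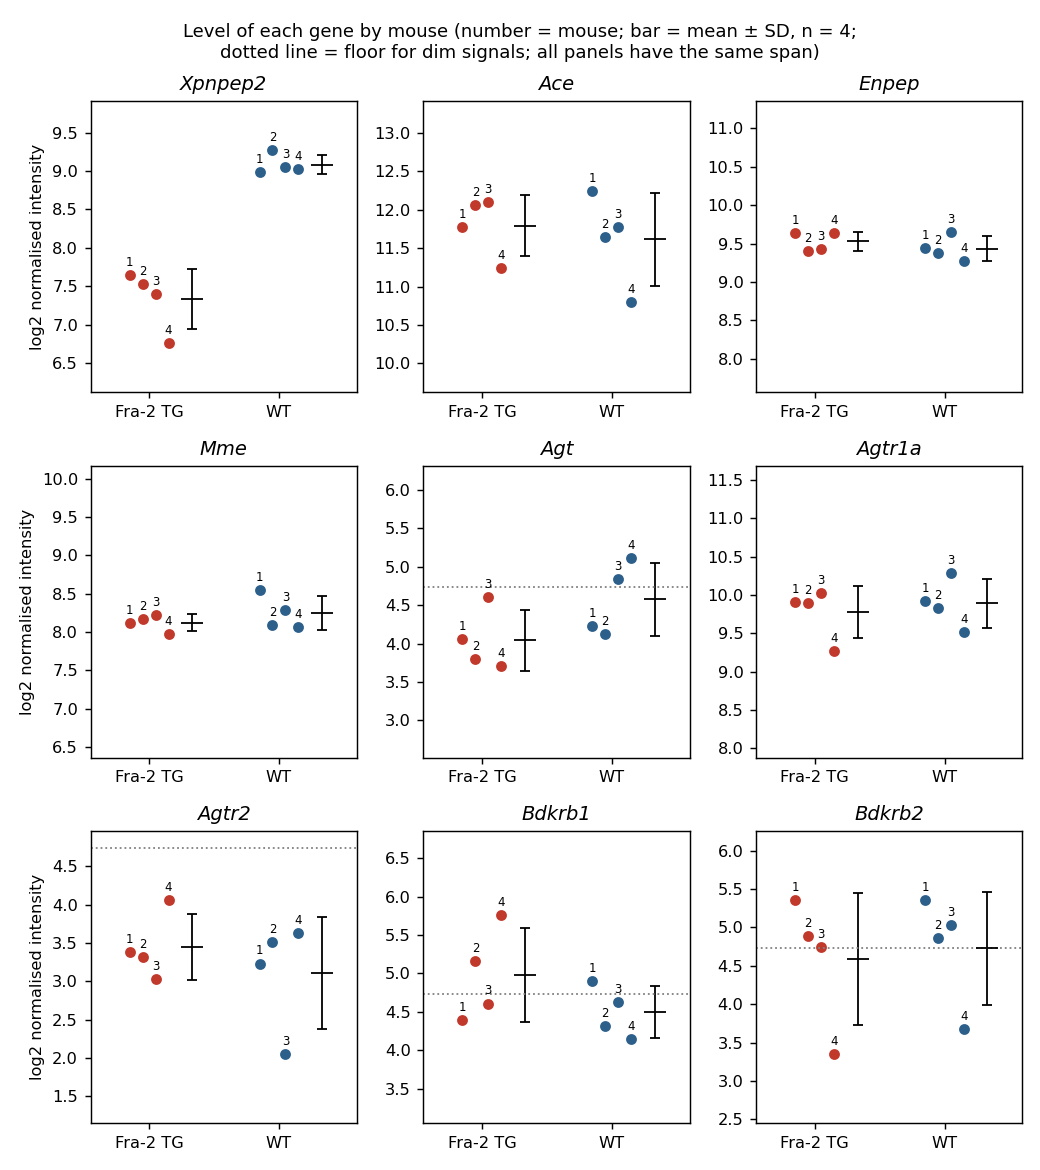
Level of each of the 9 genes in each mouse as log2 normalised intensity (vertical axis; every panel spans the same number of log2 units but starts at a different level), with Fra-2 TG mice at the left in red and WT mice at the right in blue; numbers are mouse numbers, bars are mean ± SD (n = 4), and the dotted line is the floor of 4.74. Xpnpep2 is the 1 panel in which the groups do not overlap, with Fra-2 TG mice at 6.76 to 7.64 and WT mice at 8.99 to 9.27.

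Xpnpep2 stood at 7.64, 7.52, 7.40 and 6.76 in Fra-2 TG mice 1 to 4, against 8.99, 9.27, 9.05 and 9.03 in WT mice 1 to 4. All 4 Fra-2 TG values lay below all 4 WT values, and mouse 4 was the lowest of the Fra-2 TG mice. The means were 7.33 ± 0.39 in Fra-2 TG lungs and 9.09 ± 0.13 in WT lungs (SD, n = 4 each). The log2 difference was -1.75 (SE 0.20, 95% interval -2.22 to -1.29, limma adjusted p = 0.0151). The exact permutation test gave its smallest possible two-sided p for these group sizes, 0.0286. Over all genes, groups did not overlap in 6.53%, 2.54% lower and 3.99% higher in Fra-2 TG lungs. Xpnpep2 ranked 27 among all genes by p. In whole lung, fewer cells that carry a transcript and less of it per cell cannot be told apart. With 1 mouse left out the log2 difference stayed between -1.86 and -1.56, but the call was lost without Fra-2 TG mouse 2 (limma adjusted p = 0.0507) or 3 (0.0679), or without WT mouse 1 (0.0656), 2 (0.0675), 3 (0.0725) or 4 (0.0557). It held without both mice numbered 4 (log2 difference -1.58, limma adjusted p = 0.0361), the arrays least like their own groups.

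The second Xpnpep2 spot, annotated to a cDNA clone and not to the RefSeq transcript, was dim. It read 3.64 to 4.62 in Fra-2 TG mice and 3.17 to 4.78 in WT mice, with 7 of the 8 values under the floor, all but that of WT mouse 4. Its log2 difference of 0.04 (SE 0.37) carries no direction at that brightness. Averaging both spots gave Xpnpep2 a log2 difference of -0.86 (SE 0.23, limma adjusted p = 0.306), so the call rests on the brighter spot.

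**Figure D2:**
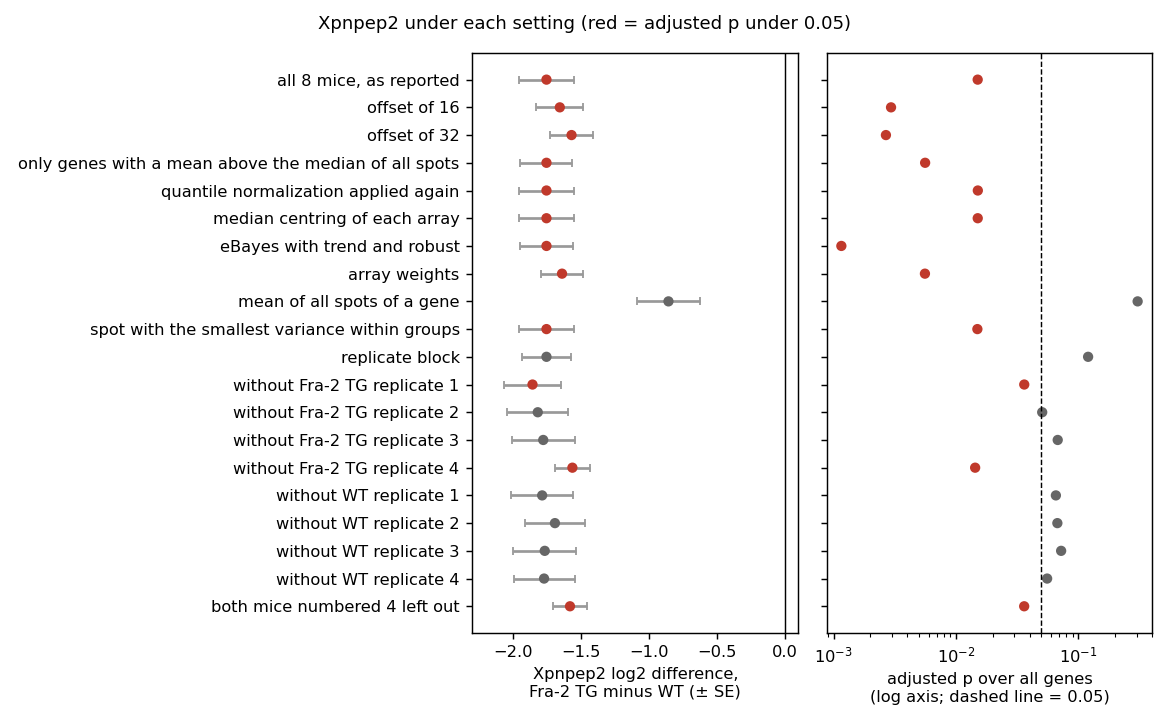
Xpnpep2 log2 difference, Fra-2 TG minus WT, with its SE (left panel) and its adjusted p over all genes (right panel, log axis, dashed line at 0.05) under each setting named at the left; red points are calls. The difference lies between -1.86 and -1.56 in all settings other than the mean of all spots (-0.86), whereas the adjusted p lies on both sides of the line.

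Xpnpep2 lies on chromosome X. Because Fra-2 is part of AP-1, which binds the letters TGANTCA, and AP-1 and related factors also bind TGACGTCA, both strings were searched on both strands (each is its own reverse complement, and they share no overlap) in windows from 250 bases before to 50 bases after the RefSeq starts in GRCm38.p6. Neither string occurs in the 1 Xpnpep2 window. The 250 bases before that start, chrX:48108475-48108724 on the plus strand, are shown because this is the 1 gene of the set that fell; they have a GC content of 46.0% and no capitals, since no match was found.
Xpnpep2, 250 bases before the start: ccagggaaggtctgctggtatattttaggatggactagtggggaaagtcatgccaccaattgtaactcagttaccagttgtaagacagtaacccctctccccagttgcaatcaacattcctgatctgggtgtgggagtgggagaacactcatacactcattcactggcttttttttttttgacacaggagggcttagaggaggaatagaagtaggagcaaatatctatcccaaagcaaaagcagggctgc
Of the 9 genes, 7 had windows, 10 windows in all, and Agtr1a and Bdkrb1 were not matched. The only match was TGAGTCA in Mme, where 2 overlapping windows of different starts hold the same site. It is shown in capitals with 10 bases on each side, chr3:63295870-63295896 on the plus strand, at base 9 counted from one start and at base -215 from the other, where the minus sign means before the start.
Mme, AP-1 string: atcccactggTGAGTCAccggagagcg
Among all 32851 promoter windows, 7.81% hold TGANTCA and 1.79% hold TGACGTCA. The gene with the match, Mme, did not pass the test, and the gene that fell has none in this window. These are descriptions of letters and say nothing of binding.

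In the annotation Xpnpep2 is flanked by Apln, which encodes the apelin ligand, and Sash3, a signalling adaptor of lymphocytes; both were looked at after the result for Xpnpep2 was known. Apln read 9.01, 9.72, 9.29 and 9.28 in Fra-2 TG mice 1 to 4, against 9.98, 10.76, 10.16 and 10.52 in WT mice 1 to 4, again without overlap. Its log2 difference was -1.03 (SE 0.22), which did not pass over all genes (limma adjusted p = 0.185). Sash3 read 9.43 to 10.01 in Fra-2 TG mice and 8.40 to 9.75 in WT mice, with overlap (log2 difference 0.29, SE 0.30, limma adjusted p = 0.806). Among genes on the sex chromosomes, Xist read 6.65 to 7.30 in Fra-2 TG mice and 6.82 to 7.48 in WT mice, and Eif2s3y of the Y chromosome 5.81 to 6.58 in Fra-2 TG mice and 5.54 to 6.81 in WT mice, so neither separated the genotypes.

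Aminopeptidase P is known from rat lung as a protein of endothelial caveolae, so a list of endothelial markers is set beside it. Of 9 endothelial markers, all above the floor in all 8 mice, 0 passed in either direction (limma), and their median log2 difference was 0.22. Before adjustment 2 of them, both positive, had a limma p under 0.05, as did 9.15% of all genes. The log2 of the summed intensity of the 9 markers was 16.56 to 16.83 in Fra-2 TG mice and 16.50 to 16.68 in WT mice. Emcn, the endothelial sialomucin endomucin, read 10.34 to 11.04 in Fra-2 TG mice and 8.49 to 10.09 in WT mice (log2 difference 1.18, SE 0.33, limma adjusted p = 0.315). Tie1, an endothelial receptor kinase, read 11.58 to 12.08 in Fra-2 TG mice and 10.90 to 11.47 in WT mice (0.57, SE 0.18, limma adjusted p = 0.370). Pecam1, the adhesion molecule CD31, had a log2 difference of 0.48 (SE 0.27) and Cdh5, the endothelial cadherin, 0.08 (SE 0.14). Of the 9 markers, 6 had positive and 3 negative differences. The negative ones were Kdr (-0.04, SE 0.17), Vwf (-0.11, SE 0.28) and Esam (-0.10, SE 0.15). None of these 9 markers passed as lower on the same arrays, but a marker that does not pass is not shown to be unchanged. Whether the amount of endothelium differed was not tested.

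The genes whose levels over the 8 mice were most like those of Xpnpep2, by Pearson correlation among 14311 other genes above the floor, were Pknox2 (r = 0.978), Arhgap17 (0.975), Rasal2 (0.974), Arhgap5 (0.972) and Esm1 (0.967). All 5 were lower in every Fra-2 TG mouse than in any WT mouse, and a shared difference between 4 and 4 mice alone gives a high r. Pknox2, a homeobox factor, read 8.63 to 9.44 in Fra-2 TG mice and 9.94 to 10.31 in WT mice. Esm1, the endothelial proteoglycan endocan, read 8.55 to 9.98 in Fra-2 TG mice and 11.02 to 11.58 in WT mice, and it was the 1 of the 5 that passed the test (log2 difference -2.21, SE 0.29, limma adjusted p = 0.0303). The Esm1 call was lost when any mouse other than Fra-2 TG mouse 2 was left out (limma adjusted p from 0.0521 without Fra-2 TG mouse 4 to 0.134 without Fra-2 TG mouse 3). The others had log2 differences from -1.10 for Pknox2 to -0.19 for Arhgap5, with adjusted p-values from 0.0894 to 0.614.

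**Figure D3:**
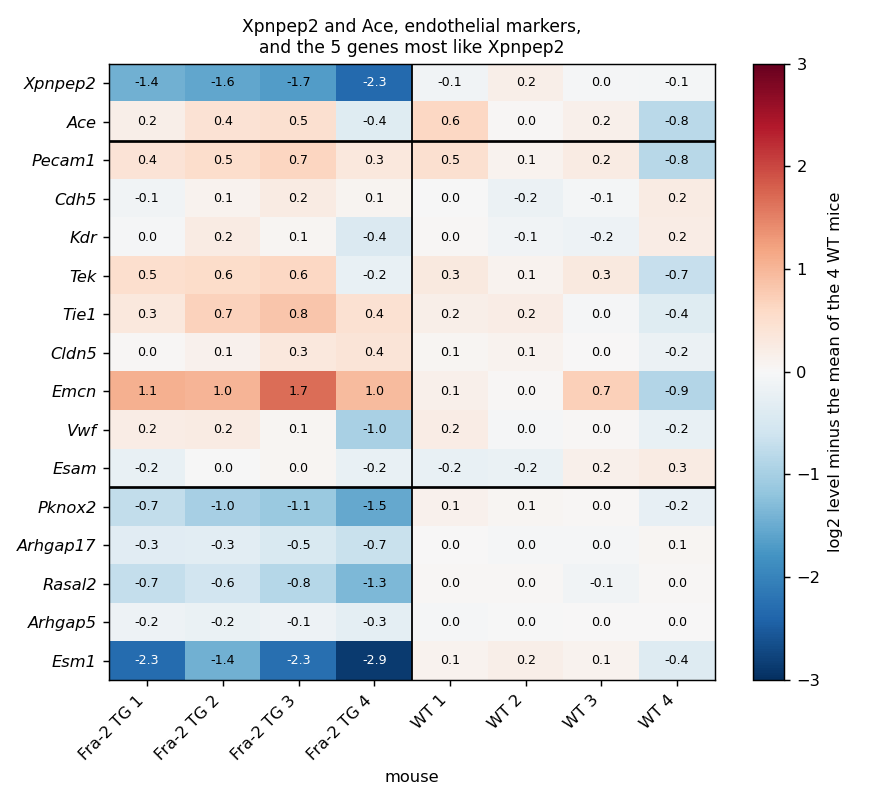
Log2 level minus the mean of the 4 WT mice (colour and printed value) for Xpnpep2 and Ace, the 9 endothelial markers, and the 5 genes most like Xpnpep2 (rows), with Fra-2 TG mice 1 to 4 at the left and WT mice 1 to 4 at the right (columns). Xpnpep2 and the 5 lowest rows are negative in all 4 Fra-2 TG mice, whereas Emcn and Tie1 are positive in all 4, and Ace takes both signs in both groups.

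Ace, the converting enzyme itself, read 11.78, 12.06, 12.10 and 11.24 in Fra-2 TG mice 1 to 4, against 12.24, 11.65, 11.78 and 10.80 in WT mice 1 to 4. The groups overlapped, and mouse 4 was the lowest in each. The means were 11.80 ± 0.39 in Fra-2 TG lungs and 11.62 ± 0.60 in WT lungs (SD, n = 4 each). The log2 difference was 0.18 (SE 0.32, limma adjusted p = 0.898). Its 95% interval, -0.56 to 0.92, leaves room for a moderate change either way, and without WT mouse 4 the difference was -0.09.

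Enpep, aminopeptidase A, which trims angiotensin II to angiotensin III, varied little from mouse to mouse. It read 9.64, 9.41, 9.43 and 9.64 in Fra-2 TG mice 1 to 4, against 9.44, 9.37, 9.65 and 9.27 in WT mice 1 to 4, with full overlap. Its log2 difference was 0.10 (SE 0.13, 95% interval -0.20 to 0.39, limma adjusted p = 0.861), an interval that excludes a change as large as that of Xpnpep2.

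Mme, neprilysin, which degrades bradykinin and natriuretic peptides and shortens angiotensin I, was read by 2 spots of the same transcript. The brighter gave 8.12, 8.17, 8.23 and 7.97 in Fra-2 TG mice 1 to 4, against 8.55, 8.10, 8.29 and 8.07 in WT mice 1 to 4. The dimmer gave 7.91 to 8.15 in Fra-2 TG mice and 7.57 to 8.60 in WT mice. Groups overlapped on both spots, with log2 differences of -0.13 (SE 0.14, 95% interval -0.46 to 0.20, limma adjusted p = 0.820) and -0.15 (SE 0.22, limma adjusted p = 0.866 over all named spots). Of the 11 spots of the 9 genes, 1 passed over all 31465 named spots, the brighter one of Xpnpep2 (limma adjusted p = 0.0161), where 0.178% of spots passed.

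Agt, the precursor of all angiotensins and mainly a liver gene, was dim. It read 4.06, 3.79, 4.60 and 3.71 in Fra-2 TG mice 1 to 4, all under the floor, against 4.23, 4.13, 4.84 and 5.12 in WT mice 1 to 4, where 2 lay above it. The groups overlapped, the log2 difference was -0.54 (SE 0.28, limma adjusted p = 0.619), and no fold is given at that brightness. The liver markers Alb, Apoa1 and Ttr also had means under the floor in both groups, whereas the fourth, Serpina1a, averaged 7.65 in Fra-2 TG lungs and 7.87 in WT lungs.

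Agtr1a, the receptor that carries most vasoconstrictor effects of angiotensin II, read 9.91, 9.89, 10.02 and 9.27 in Fra-2 TG mice 1 to 4, against 9.92, 9.83, 10.29 and 9.52 in WT mice 1 to 4. Mouse 4 was the lowest in each group, as for Ace, and the groups overlapped. The means were 9.77 ± 0.34 in Fra-2 TG lungs and 9.89 ± 0.32 in WT lungs (SD, n = 4 each; log2 difference -0.12, SE 0.22, 95% interval -0.62 to 0.39, limma adjusted p = 0.904). Agtr1b, its near copy in rodents, read 4.63 to 5.06 in Fra-2 TG mice and 4.04 to 4.89 in WT mice (limma adjusted p = 0.751), and whether a spot reads both copies is not known here. Agtr2, the second angiotensin II receptor, lay at 3.03 to 4.06 in Fra-2 TG mice and 2.05 to 3.64 in WT mice, under the floor in all 8, so no difference is read from it.

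The kinin receptors were both near the floor. Bdkrb1, the receptor that tissue injury induces, read 4.39, 5.16, 4.61 and 5.76 in Fra-2 TG mice 1 to 4, with mice 2 and 4 above the floor, against 4.90, 4.32, 4.62 and 4.14 in WT mice 1 to 4, with mouse 1 above it. The groups overlapped (log2 difference 0.49, SE 0.31, limma adjusted p = 0.685). Bdkrb2, the constitutive bradykinin receptor and the direct neighbour of Bdkrb1 on chromosome 12, read 5.35, 4.89, 4.75 and 3.35 in Fra-2 TG mice 1 to 4, against 5.35, 4.86, 5.03 and 3.67 in WT mice 1 to 4. Mouse 4 was again the lowest in each group, and the difference was -0.14 (SE 0.49, limma adjusted p = 0.952). Over the 8 genes other than Xpnpep2 the exact permutation p ran from 0.143 (Agt) to 0.714 (Bdkrb2), two-sided.

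Of 48 further genes of these pathways, 45 were measured and the rest are not analysed here. Among the 45, 1 rose and 0 fell over all genes (limma), 4 with positive and 3 with negative differences had an unadjusted p under 0.05, as did 9.15% of all genes, and the median log2 difference was 0.02. In the angiotensin branch 0 of 15 passed (median 0.09), in the kinin branch 1 of 17 (median 0.01), and among genes of receptor coupling 0 of 13 (median 0.00).

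The gene that rose was Mep1b, the beta subunit of the metalloprotease meprin, at 8.46, 8.16, 8.58 and 9.71 in Fra-2 TG mice 1 to 4, against 3.57, 3.64, 3.93 and 2.63 in WT mice 1 to 4. All WT values lay under the floor, so the rise was at least 15.9-fold (limma adjusted p = 0.00446), measured against the floor. Mep1b was counted in the kinin branch because the list of further genes placed meprins there. An action of its product on kinins was not tested.

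Kininogens, from which kallikreins release the kinins, were higher in every Fra-2 TG mouse than in any WT mouse on 1 of 2 Kng1 spots, without passing the test. The brighter Kng1 spot read 6.99, 6.17, 5.69 and 10.33 in Fra-2 TG mice 1 to 4, against 3.55, 3.80, 3.34 and 5.36 in WT mice 1 to 4, where 3 lay under the floor. The level in Fra-2 TG mouse 4 was far above the other 3, and mouse 4 was also the highest of the WT mice. The log2 difference was 3.28 (SE 0.98, limma adjusted p = 0.350), and without Fra-2 TG mouse 4 it was 2.27. The other Kng1 spot averaged 3.32 in Fra-2 TG lungs and 3.49 in WT lungs, under the floor. Kng2 followed the same order of mice in the Fra-2 TG group, with 5.42, 4.49, 4.29 and 7.84 in mice 1 to 4, against 4.08, 3.45, 1.99 and 4.58 in WT mice 1 to 4, and the groups overlapped (log2 difference 1.98, SE 0.85, limma adjusted p = 0.538). Kng1 and Kng2 are near copies, so a spot may read both. Serpina1a, a liver marker, also peaked in Fra-2 TG mouse 4, at 9.02 against 6.66 to 7.54 in the other 3 Fra-2 TG mice and 7.59 to 7.97 in WT mice. The other liver markers did not peak there: in Fra-2 TG mouse 4 Alb read 3.85, Apoa1 3.95 and Ttr 2.90, all under the floor.

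The other genes with the smallest p-values differed by less and did not pass. In the kinin branch Xpnpep3, the mitochondrial relative of aminopeptidase P, read 5.46 to 5.66 in Fra-2 TG mice and 5.85 to 6.13 in WT mice, without overlap (log2 difference -0.39, SE 0.12, limma adjusted p = 0.362). Xpnpep1, the cytosolic relative, had a log2 difference of 0.14 (SE 0.14, limma adjusted p = 0.796). In the angiotensin branch Prcp, a carboxypeptidase that shortens angiotensin II, read 11.39 to 12.64 in Fra-2 TG mice and 10.97 to 11.48 in WT mice (0.72, SE 0.27). Of the 2 dimmer Prcp spots, 1 of the same transcript differed by 0.99 without overlap (limma adjusted p = 0.487 over all named spots). The other, annotated to a cDNA clone, differed by 0.08 with overlap. Cma1, the mast cell chymase, read 4.16 to 4.66 in Fra-2 TG mice, all under the floor, and 4.38 to 5.42 in WT mice. Anpep, aminopeptidase N, had a difference of -0.31 (SE 0.15) and Agtrap, which binds the angiotensin II receptor and lowers its surface level, 0.37 (SE 0.18). Among coupling genes Rgs2, which damps signalling through Gq, read 12.83 to 12.98 in Fra-2 TG mice and 13.11 to 13.38 in WT mice, without overlap (-0.31, SE 0.11), while its dimmer spot overlapped and differed by -0.07. Plcb1, a phospholipase C, differed by 0.47 (SE 0.22) and Rgs4, another brake on Gq, by 0.51 (SE 0.28). The 2 dimmer Plcb1 spots differed by 0.73 and 0.69 and the dimmer Rgs4 spot by 0.47, none passing over all named spots. For the brightest spots of the 7 genes from Prcp to Rgs4, limma adjusted p-values ran from 0.468 (Rgs2) to 0.642 (Rgs4).

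**Figure D4:**
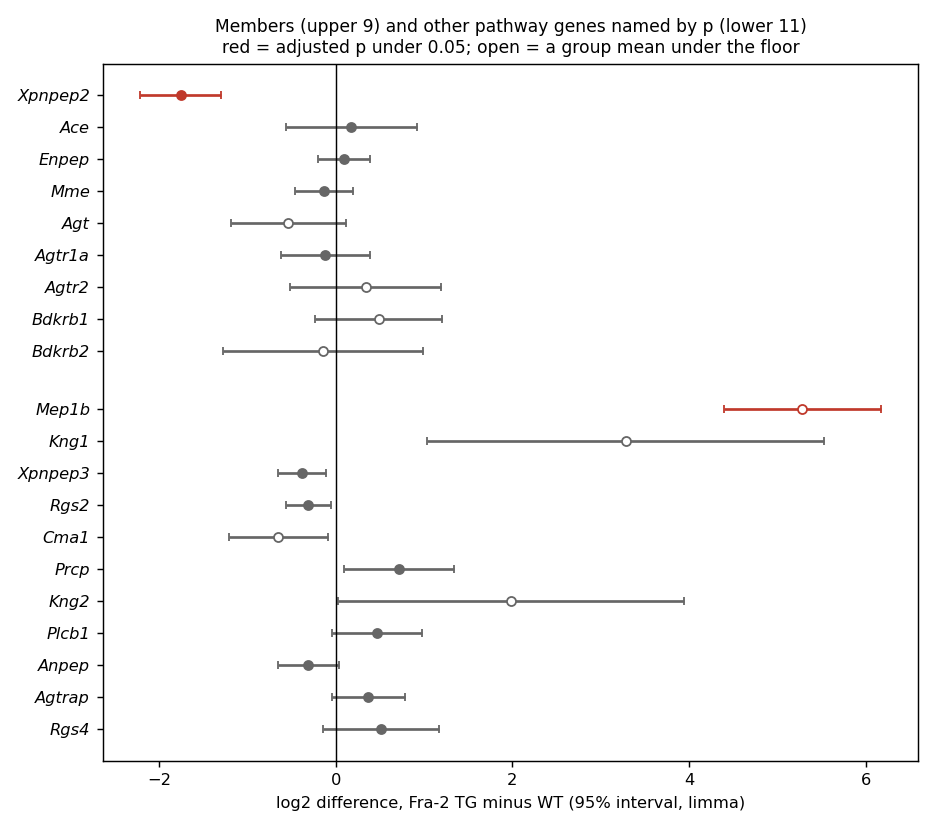
Log2 difference, Fra-2 TG minus WT, with its 95% interval from limma (horizontal axis) for the 9 genes (upper block) and 11 further pathway genes (lower block, in order of p); red marks an adjusted p under 0.05 and open circles a group mean under the floor. Xpnpep2 at -1.75 and Mep1b at 5.28 are the only calls, and the intervals of the other 8 of the 9 genes cross 0.

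Lung identity was checked on 7 alveolar epithelial markers, all above the floor in all 8 mice. Of 52 measured markers of 10 tissues and cell types, 0 passed (limma). Before adjustment 9.15% of all genes had a limma p under 0.05, and of the markers 5 with positive and 3 with negative differences did. Besides Emcn and Tie1 these were Dntt of thymocytes (1.24), Col1a1 of fibroblasts (0.52), Cd3e of T cells (0.41), Nppa of heart muscle (-1.63), Cnn1 of smooth muscle (-0.48) and Tppp3 of ciliated cells (-0.37), all as log2 differences. The kidney markers Umod, Slc12a1 and Nphs1 lay under the floor in all 8 mice, and the fourth, Aqp2, above it at 5.92 to 6.12 in Fra-2 TG mice and 5.31 to 6.46 in WT mice. By list, the median log2 differences were -0.10 for alveolar epithelium, -0.31 for smooth muscle and pericytes, 0.04 for fibroblasts, -0.33 for airway epithelium, 0.31 for leukocytes, -0.20 for liver, -0.48 for heart, 0.09 for kidney and 0.51 for thymus. The alveolar marker Sftpc and the airway marker Scgb1a1 read the highest value of the array in every mouse. A rise in them could not be seen, and a fall might be hidden. The alveolar markers Sftpb and Sftpa1 lay close to that ceiling. All of these count among the 52 and in the alveolar and airway medians, which limits what those lists can show.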

How the data were processed

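The authors deposited linear intensity values for 62976 spots on 8 single-colour arrays (Cy5, Agilent low-input labelling, per the labels' protocols). R 2.15.1 and limma 3.14.4 are the tools listed in the submitters' processing notes, with no account of the steps used. The arrays shared 1 distribution (median 26.6, mean 1203), as quantile normalization would give; how background was treated is not stated. No detection flags were used, so the median of all log2 values, 4.74, served as a floor. A fold against a group with every value under it was computed with those values raised to it.

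The platform annotation named 31465 spots, none with several genes. RefSeq accessions matched 29050 of them to GRCm38.p6 symbols and replaced 2933 symbols. The log2 intensity with no offset was fitted with limma 3.58.1 (lmFit, eBayes) in R 4.3.3, genotype as the only term, and p-values were adjusted by Benjamini-Hochberg over all 20863 genes (for spots, over all named spots). Intervals are 95%. Single genes also had an exact permutation test over all 70 divisions of the 8 arrays. The fit was tested on simulated data. The motif search used Python 3.11.15, and figures matplotlib 3.10.9.

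The members, lists, floor and tests were chosen with earlier results of these data known. Named were all members, Fosl2, further pathway genes past the threshold and the 10 others with the smallest p, the 5 genes most like the member with the smallest p, and markers at an unadjusted p under 0.05. Apln, Sash3, Xist, Eif2s3y, Xpnpep1, Agtr1b, Pecam1, Cdh5 and the liver and kidney markers were named besides, after their values were seen. Kdr, Vwf, Esam, Sftpc, Sftpb, Sftpa1 and Scgb1a1 were also named in that way. Labels call the mice separate animals. The number of arrays limits the precision.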

Additional observations from a re-analysis of the deposited data

How the results depend on the processing

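The Xpnpep2 log2 difference was negative in all settings run. The count of 1 called among the 9 genes stayed 1 with offsets of 16 or 32, under both scalings and under both variance models. It also stayed 1 with the spot of smallest variance, at an adjusted p under 0.1 and without both mice numbered 4. Without dim genes it was 1 of 6, since Agt, Agtr2 and Bdkrb2 were left out there. Repeating the quantile step or centring the arrays left the values almost as they were, so these scalings test little. For Xpnpep2 the spot of smallest variance is its brighter spot, and a looser threshold cannot remove a call. Those settings therefore also test little. With the mean of all spots the count was 0 and Xpnpep2 differed by -0.86. With 1 mouse left out the count ran from 0 to 1, for genes and for spots, and Xpnpep2 from -1.86 to -1.56. With the replicate block (mouse number) the counts were 0 of the 9 genes, 0 of their spots, 0 of the further pathway genes and 5 over all genes, with Xpnpep2 at -1.75 (limma adjusted p = 0.120) and Mep1b at 5.28 (0.103). Same-numbered mice correlated at 0.14, -0.01, 0.15 and 0.08 in their deviations from group means. Fra-2 TG mice 1, 3 and 4 matched the WT mouse of their own number best, as a hint from the data and not the design, and Fra-2 TG mouse 2 did not. The block lowered the SE for Bdkrb2 (0.49 to 0.13), Agtr1a (0.22 to 0.12) and Ace (0.32 to 0.20), and raised it for Enpep (0.13 to 0.14) and Bdkrb1 (0.31 to 0.38). For Mep1b the SE rose from 0.39 to 0.48. For Xpnpep2 it went from 0.20 to 0.18, so that call was lost with the difference unchanged and the SE no larger. The labels name no pairs, so the numbers were not taken as pairs, but these values cannot settle whether they are. The 45 calls over all genes became 80 (49 higher, 31 lower) and 88 (56 and 32) with the offsets of 16 and 32, 71 (43 and 28) without dim genes, 118 (80 and 38) with trend and robust variance, 100 (60 and 40) with array weights and 76 (46 and 30) at an adjusted p under 0.1, 17 (9 and 8) without both mice numbered 4 and 17 to 38 with 1 mouse left out; the cause was not tested. Signs turned with 1 mouse left out for Ace (-0.094 to 0.39), Agtr1a (-0.24 to 0.052), Agtr2 (-0.013 to 0.51) and Bdkrb2 (-0.49 to 0.27), none of them called, and for Kng1 (-0.17) with the spot of smallest variance, which is its dim spot. Mep1b passed in all 8 fits with 1 mouse left out. Signal over background limits Agt, Agtr2, Bdkrb1, Bdkrb2, Kng1 and Kng2.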
